A study of Mus musculus with 61 samples.

Results

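The genes described here were 41 genes of epithelial cell junctions and cell polarity. The list was fixed by name, but it was chosen with earlier results of these data known. They were 12 claudins, 7 other tight junction genes, 6 adherens junction genes, 8 desmosome genes and 8 polarity genes, of 46078 genes counted in all. Every member was present in the count table, and all 41 were among the 24004 genes tested. Transcripts were measured in pools of 50 cells sorted from organoids of C57BL/6 mouse pancreatic duct cells, three-dimensional cultures that expand in matrix. The organoids had been infected with separate doxycycline-inducible lentiviruses for Ngn3 (with GFP), Pdx1 (with LSSOrange) and MafA (with tdTomato), and the transgenes had been induced for 8 days. Cells were sorted by their reporters into 6 combinations: Pdx1, MafA, Pdx1 with MafA, and each of these with Ngn3. Every combination was taken from organoids carrying the unaltered Ngn3 (WT cultures) and from organoids carrying a phospho-mutant Ngn3 (6SA cultures), which gave 12 conditions. The cells without Ngn3 are therefore cells of infected and induced organoids that carried Pdx1, MafA or both, not unmodified duct cells, and no group of cells with Ngn3 alone was analysed here. After technical repeats were summed there were 15 samples without Ngn3 and 17 with it, 2 or 3 per condition, from organoids at passage 2 (replicates 1 and 2) or passage 5 (replicate 3).

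Epithelial cells are joined near their apical side by tight junctions, below them by adherens junctions, and along their flanks by desmosomes. Claudins and occludin are the transmembrane proteins of tight junctions and set which ions and solutes can pass between cells, while scaffold proteins such as ZO-1 (Tjp1) and ZO-3 (Tjp3) tie them to actin. Classical cadherins bridge cells in adherens junctions and bind catenins inside the cell. The Par, Crumbs and Scribble complexes define the apical and basolateral sides of the cell. In the embryonic pancreas Ngn3 marks endocrine progenitors, which leave the ductal epithelium and gather into islets, where E-cadherin and N-cadherin hold endocrine cells together.

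The sequences upstream of claudin genes that the results turn on are shown first. Cldn2, Cldn3, Cldn4 and Cldn7 were lower in cells with Ngn3, while Cldn1 was high in most samples with all 3 factors. Cldn8, which was also lower, had no matched RefSeq start site and is not shown. Each line holds the 250 bases before the RefSeq start site (GRCm38.p6), 5′ to 3′ on the strand of the gene. Capitals mark CANNTG, the E-box letters that basic helix-loop-helix factors such as Ngn3 bind.
Cldn2, chrX:139800558-139800807 (plus strand): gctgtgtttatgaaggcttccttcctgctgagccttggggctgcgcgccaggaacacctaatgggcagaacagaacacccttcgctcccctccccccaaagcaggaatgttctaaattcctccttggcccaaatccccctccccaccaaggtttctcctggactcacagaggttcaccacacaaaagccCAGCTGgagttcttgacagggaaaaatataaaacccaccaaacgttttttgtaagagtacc
Cldn3, chr5:134985964-134986213 (plus strand): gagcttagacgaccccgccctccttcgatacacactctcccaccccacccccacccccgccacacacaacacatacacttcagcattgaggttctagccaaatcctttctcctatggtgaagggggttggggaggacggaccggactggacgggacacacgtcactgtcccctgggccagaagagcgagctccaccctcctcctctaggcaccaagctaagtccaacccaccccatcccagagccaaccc
Cldn4, chr5:134946935-134947184 (minus strand): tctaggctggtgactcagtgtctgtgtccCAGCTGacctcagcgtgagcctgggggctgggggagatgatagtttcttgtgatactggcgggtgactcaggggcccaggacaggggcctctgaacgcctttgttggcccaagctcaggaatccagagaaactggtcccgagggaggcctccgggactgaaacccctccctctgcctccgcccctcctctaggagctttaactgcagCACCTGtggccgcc
Cldn7, chr11:69964529-69964778 (plus strand): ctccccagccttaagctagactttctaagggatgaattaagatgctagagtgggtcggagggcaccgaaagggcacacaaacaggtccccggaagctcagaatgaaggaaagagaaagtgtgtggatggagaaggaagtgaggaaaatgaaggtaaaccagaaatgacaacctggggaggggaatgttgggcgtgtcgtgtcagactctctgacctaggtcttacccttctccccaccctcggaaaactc
Cldn1, chr16:26371840-26372089 (minus strand): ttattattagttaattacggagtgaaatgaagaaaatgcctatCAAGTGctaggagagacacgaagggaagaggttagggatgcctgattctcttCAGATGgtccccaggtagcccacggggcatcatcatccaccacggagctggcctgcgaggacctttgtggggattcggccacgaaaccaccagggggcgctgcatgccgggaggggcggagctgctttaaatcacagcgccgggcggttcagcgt
The E-box letters were found 1 time before Cldn2 (CAGCTG), 2 times before Cldn4 (CAGCTG and CACCTG) and 2 times before Cldn1 (CAAGTG and CAGATG), and were not in these windows of Cldn3 and Cldn7. Of the 41 members, 27 matched a start site in the RefSeq table, and 17 of these 27 held CANNTG, against 66.2% of the 32851 windows of all genes. CAGATG on either strand, the E-box variant typical of Ngn3 and NeuroD1, was in 1 of the 27 windows (Cldn1) and in 14.4% of all windows. CAGGTG on either strand, the variant bound by Snail and Zeb repressors, was in 8 of 27 windows and in 17.2% of all. AACNNGTT, the letters of Grainyhead-like factors, was in 1 of 27 (Cgn) and in 3.64% of all. CAGATG and CAGGTG are themselves cases of CANNTG. A match of letters is a description and not a binding site.

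Of the 41 members, 34 had more than 3 counts in every sample and 7 did not. Totals on genes were 2579583 to 19461008 counts per sample (median 8490758.5), so that 3 counts, taken as the limit of detection, corresponded to 0.136 to 1.01 CPM, the counts of a gene scaled to library size. Neurog3 transcripts checked the labels: 0 to 0.788 CPM in the 15 samples without Ngn3 and 7.87 to 329 CPM in the 17 with it. Pdx1 was 3.21, 11.1 and 30.6 CPM (lowest, median, highest) in the 11 samples labelled without it and 9.84, 31.7 and 191 CPM in the 21 labelled with it, and these ranges overlapped. Mafa was low throughout, with 0 to 0.116 CPM in the 10 samples labelled without MafA and 0, 1.45 and 12.7 CPM in the 22 labelled with it, so that its transcripts did not check every MafA label. The epithelial markers of duct cells were present without Ngn3, with a median of 498 CPM for Cdh1 and 1087 CPM for Krt19. Endothelial markers summed to at most 43.8 CPM and mesenchyme markers to at most 399 CPM in any sample, with a median of 20.6 CPM without and 42.3 CPM with Ngn3. Technical repeats, the libraries that share a replicate number and differ in a second index, differed less than biological replicates for 33 of the 41 members, with a median standard deviation of 0.47 against 0.63 on the log2(CPM + 1) scale. Whether they came from one pool of cells is not given in the sources used here.

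Levels of different genes were compared per kilobase of exon. Over all samples without Ngn3 the highest median CPM per kilobase were those of Cldn4 (943), Epcam (719), Cldn3 (463), Cldn2 (294) and Cldn7 (253). The place of Epcam rested on replicates 2 and 3, where its median was 840 CPM per kilobase, against 85.0 in replicate 1. Other places varied too. In replicate 1 F11r (281) was above Cldn7 (256), and in replicates 2 and 3 Ctnnb1 (273) was above Cldn2 (262) and Cldn7 (253). Cldn10 and Cldn18, claudins of other epithelia, had at most 3 counts in 26 and 29 of the 32 samples, and Cldn15 in 14. No difference was read from these 3 genes.

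To find how the junction genes differed between cells with and without Ngn3, the 6 conditions with Ngn3 were compared with the 6 conditions that lacked only Ngn3, in a single edgeR fit over all genes. Of the 41 members, 16 were lower and 3 were higher with Ngn3 at an adjusted p under 0.05. Among all genes tested, 10.5% were lower and 11.1% were higher. Among the 10174 genes with a mean of at least 10 CPM, which include 37 of the members, 17.2% were lower and 12.2% were higher. The lower members were Cldn2, Cldn3, Cldn4, Cldn7 and Cldn8 of the claudins, Tjp3, Ocln and F11r of the other tight junction genes, Ctnnb1, Ctnna1 and Ctnnd1 of the adherens junction, Pkp3 and Ppl of the desmosome, and Pard6b, Crb3 and Patj of the polarity genes. The higher members were Cdh2, Dsp and Pard3, each in a different structure. The median log2 fold change was -0.34 over the 41 members and -0.40 without Cldn10, Cldn15 and Cldn18, against 0.07 over all 24004 genes.

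**Figure D1:**
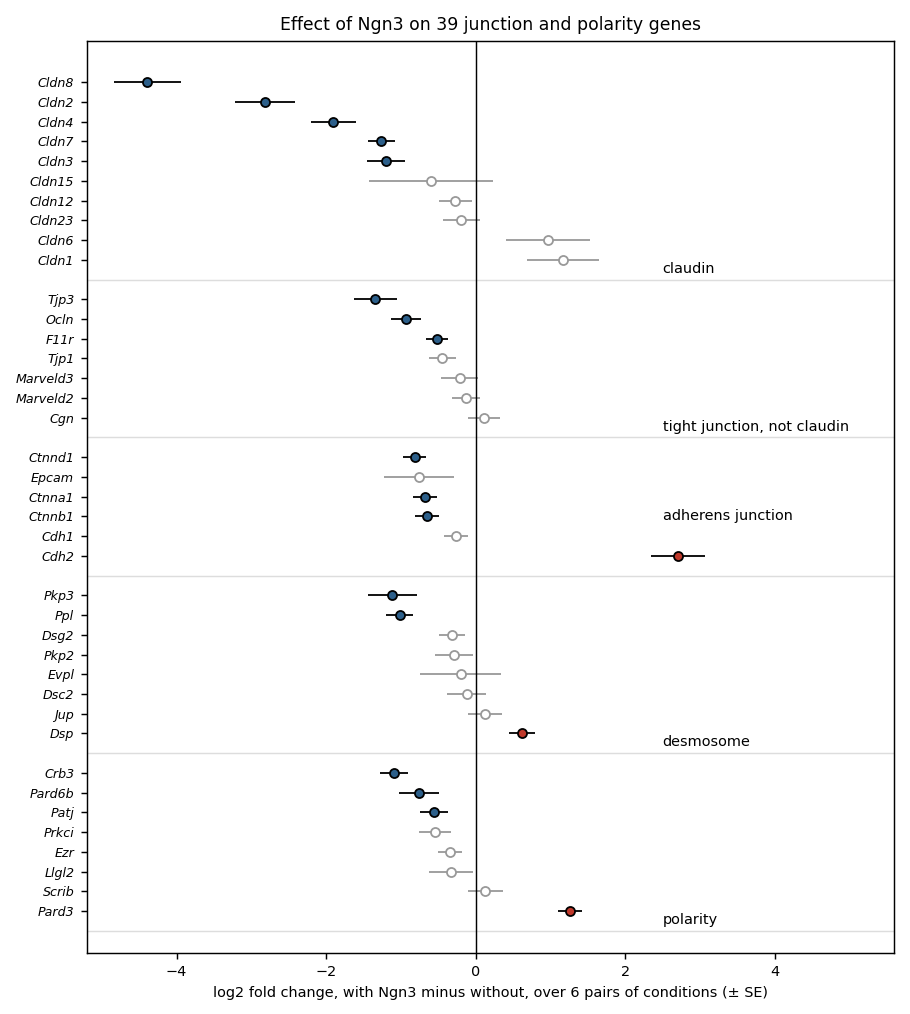
Log2 fold change of 39 members between cells with and without Ngn3 (x axis, over 6 pairs of conditions), with bars for the standard error, grouped by structure. Filled points passed an adjusted p under 0.05, blue for the 16 lower and red for the 3 higher members; Cldn10 and Cldn18 were too low to be drawn.

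The claudins had the largest decreases. Cldn8, a barrier claudin of ducts and kidney tubules, was 18.7, 53.9 and 84.9 CPM (lowest, median, highest) in the 15 samples without Ngn3 and 0, 4.98 and 15.5 CPM in the 17 samples with it. The 2 sets of samples did not overlap. It was lower by 4.39 ± 0.44 (SE) on the log2 scale (adjusted p = 2.60e-08), a fitted value that depends on the prior count because 5 of the 32 samples held at most 3 counts. Cldn2, which forms a paracellular pore for cations and water, was 703, 978 and 2452 CPM without Ngn3 and 0.732, 268 and 543 CPM with it, again without overlap. Its fold change was 7.07 (log2 -2.82 ± 0.40, adjusted p = 5.68e-06). Only these 2 of the 41 members had sets of samples that did not overlap, and 0.692% of all genes tested did.

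Cldn4, a barrier claudin, was 724, 1712 and 3927 CPM without and 85.3, 622 and 1283 CPM with Ngn3, a 3.74-fold decrease (log2 -1.90 ± 0.30, adjusted p = 2.76e-05). Cldn7, which stabilises the lateral membrane together with Epcam, was 306, 494 and 685 CPM without and 71.1, 210 and 378 CPM with Ngn3 (log2 -1.26 ± 0.18, adjusted p = 8.92e-06). Cldn3, another barrier claudin, was 357, 583 and 983 CPM without and 36.2, 268 and 673 CPM with Ngn3 (log2 -1.20 ± 0.25, adjusted p = 0.000751). The ranges of these 3 genes overlapped, but in same-numbered samples of matching conditions Cldn4 and Cldn7 were lower with Ngn3 in 14 of 14 pairs and Cldn3 in 13 of 14. Here and below, such pairs are matched by replicate number, which was taken as pairing the samples in 12 of the 14. The exceptions are the pairs of phospho-mutant cultures beside Pdx1 and MafA, which share a label only. Their deviations from the condition mean correlated at -0.42 and -0.36. Cldn3 (chr5:134986214-134987472, plus strand) and Cldn4 (chr5:134945119-134946934, minus strand) lie close to each other on chromosome 5 (GRCm38). Cldn12 and Cldn23 differed by -0.27 ± 0.22 and -0.20 ± 0.25 on the log2 scale and did not pass the test (adjusted p = 0.496 and 0.768). Cldn6, a claudin of embryonic epithelia, ranged from 0 to 65.5 CPM without and from 3.00 to 99.4 CPM with Ngn3 (adjusted p = 0.266).

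Among the other tight junction genes, the transmembrane genes and the scaffolds did not move as a block. Ocln (occludin) was 49.8, 130 and 204 CPM without and 24.4, 83.5 and 104 CPM with Ngn3 (log2 -0.93 ± 0.20, adjusted p = 0.00108), lower in 13 of 14 pairs. F11r, which encodes the adhesion molecule JAM-A, was lower (log2 -0.52 ± 0.14, adjusted p = 0.00913), with medians of 632 and 449 CPM. Tjp3 fell from a median of 56.7 to 14.1 CPM (log2 -1.34 ± 0.29, adjusted p = 0.00103), but 4 of 14 pairs went the other way. Tjp1, the central scaffold of the junction, was 67.0, 144 and 201 CPM without and 41.8, 117 and 160 CPM with Ngn3 and did not pass the test (log2 -0.45 ± 0.18, adjusted p = 0.0789). The tricellulin gene Marveld2, its relative Marveld3 and the cingulin gene Cgn had log2 differences of -0.13, -0.21 and 0.11 with adjusted p of 0.821, 0.711 and 0.934.

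At the adherens junction the 2 classical cadherins differed from each other. Cdh2, which encodes N-cadherin, was 2.48, 14.8 and 38.0 CPM in samples without Ngn3 and 19.9, 76.3 and 334 CPM in samples with it. It was higher in 14 of 14 pairs, by 6.52-fold (log2 2.71 ± 0.37, adjusted p = 2.81e-06). Cdh1, which encodes E-cadherin, was 344, 498 and 761 CPM without and 255, 504 and 749 CPM with Ngn3, and its log2 difference of -0.26 ± 0.16 did not pass the test (adjusted p = 0.281). Even with Ngn3, the median of Cdh1 was 110 CPM per kilobase of exon and that of Cdh2 was 9.46. The catenin genes Ctnnb1, Ctnna1 and Ctnnd1 were lower. Ctnnb1 (β-catenin) had medians of 1267 and 820 CPM (log2 -0.65 ± 0.16, adjusted p = 0.00352), Ctnna1 (α-catenin) of 594 and 403 CPM (log2 -0.68 ± 0.16, adjusted p = 0.00224) and Ctnnd1 (p120-catenin) of 106 and 72.5 CPM (log2 -0.82 ± 0.15, adjusted p = 0.000167). Ctnnd1 shares 61.2% of its exonic bases with a read-through gene on the same strand and Ctnnb1 shares 15.1% with neighbours, so their counts are uncertain. Epcam, a homophilic adhesion molecule of epithelia, had a log2 difference of -0.76 ± 0.47 (adjusted p = 0.311) and is described with the replicates below.

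Desmosomal genes moved in both directions. Dsp, which encodes desmoplakin, the link from desmosomes to keratin filaments, was 82.5, 137 and 239 CPM without and 107, 208 and 475 CPM with Ngn3 (log2 0.62 ± 0.18, adjusted p = 0.0116). It was higher in 11 of 14 pairs. Ppl, which encodes periplakin, another linker to keratin, was 56.7, 83.8 and 139 CPM without and 16.9, 43.4 and 87.1 CPM with Ngn3, a 2.02-fold decrease (log2 -1.02 ± 0.18, adjusted p = 0.000103). Pkp3, a plaque protein, had medians of 55.8 and 29.8 CPM (log2 -1.12 ± 0.33, adjusted p = 0.0130). The desmosomal cadherins Dsg2 and Dsc2, the plaque genes Pkp2 and Jup (plakoglobin) and the envoplakin gene Evpl did not pass the test, with log2 differences from -0.32 (Dsg2) to 0.12 (Jup).

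Of the 8 polarity genes, 1 was higher and 3 were lower. Pard3, the higher one, encodes the scaffold of the Par complex and was 38.3, 57.1 and 92.4 CPM without and 75.9, 135 and 308 CPM with Ngn3. The increase was 2.40-fold (log2 1.26 ± 0.17, adjusted p = 1.81e-06) and was seen in 14 of 14 pairs. Its partner Pard6b was lower (log2 -0.76 ± 0.27, adjusted p = 0.0410), with medians of 48.6 and 25.4 CPM. Prkci, the kinase of the same complex, did not pass the test (log2 -0.55 ± 0.21, adjusted p = 0.0678). Crb3, the transmembrane protein of the apical Crumbs complex, was 37.6, 70.9 and 106 CPM without and 13.5, 32.8 and 63.8 CPM with Ngn3 (log2 -1.09 ± 0.19, adjusted p = 9.38e-05), lower in 14 of 14 pairs. Patj, a scaffold of that complex, was lower by a smaller amount (log2 -0.56 ± 0.18, adjusted p = 0.0264). The calls of both Pard6b and Patj were lost with RLE size factors. The basolateral genes Llgl2 and Scrib differed by -0.33 ± 0.29 and 0.13 ± 0.23. Ezr, which encodes ezrin, the linker of apical microvilli to actin, was 184, 379 and 662 CPM without and 197, 358 and 549 CPM with Ngn3 (log2 -0.34 ± 0.16, adjusted p = 0.157). The sign of the Ezr difference was reversed without replicate 1.

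**Figure D2:**
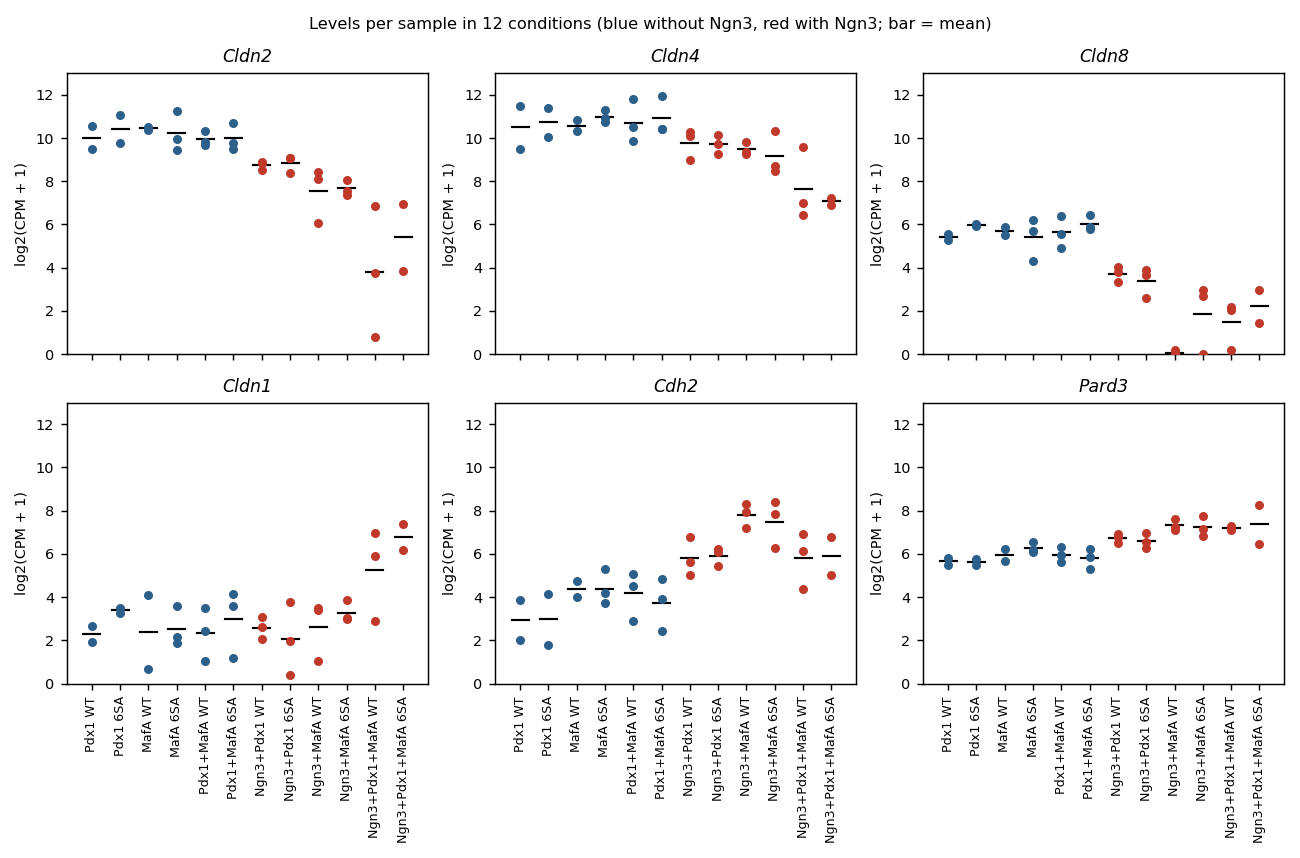
Levels of 6 members in every sample, as log2(CPM + 1) on the y axis, in 12 conditions on the x axis (blue without Ngn3, red with Ngn3, black bar the mean). Cldn2 and Cldn8 separate the 15 blue from the 17 red samples, while Cldn1 is high in 4 of the 5 samples with all 3 factors.

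Of the 19 members past the threshold, 8 had the direction of the fit in all 14 same-numbered pairs, and 14 had it in both pairs at passage 5. The replicate number was taken as pairing the samples in 12 of the 14 same-numbered pairs, and the others share a label only. How many of the 19 calls stood depended on the replicates. Without replicate 1, 9 members were lower and 4 higher, where 5.83% of all genes were lower and 7.43% higher. Without replicate 2, 8 were lower and 2 higher, where 4.34% of all genes were lower and 4.44% higher. Cldn2, Cldn4, Cldn7, Cldn8, Ctnnd1, Ppl, Cdh2 and Pard3 passed under every alternative tried. Pools were sorted by reporters and not by cell type, so a lower level cannot be told apart from fewer cells that express the gene. Duct markers moved with the junction genes, and their part in these differences was not tested. Of 14 duct markers, 11 were lower and 0 higher, where 10.5% of all genes tested were lower and 11.1% higher. The summed level of the duct markers was 55695 to 143922 CPM without and 5026 to 52199 CPM with Ngn3. All 14 endocrine markers were higher, from a summed level of 24.1 to 109 CPM without to 1239 to 16357 CPM with Ngn3. Chga, of neuroendocrine secretory granules, was among them, with medians of 1.54 and 969 CPM.

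The effect of Ngn3 was also read separately by the factor it accompanied. Beside Pdx1 1 member passed the test, Cdh2 (log2 2.76 ± 0.67, adjusted p = 0.0295), where 1.49% of all genes did. When only these conditions were fitted Cdh2 did not pass and Cldn8 did (adjusted p = 0.0168). With the replicate number as a block 3 members passed, Cdh2, Pard3 and Cldn8 (4.21% of all genes), and none did when any of the 3 replicates was left out. Beside MafA 10 members passed (3 higher and 7 lower, 4.67% of all genes). Beside Pdx1 and MafA 14 passed (3 higher and 11 lower, 17.8% of all genes). Without replicate 2 these counts were 1 beside MafA (0.381% of all genes) and 3 beside Pdx1 and MafA (3.37%). The 3 higher members were Cdh2, Pard3 and Dsp beside MafA, and Cdh2, Pard3 and Cldn1 beside Pdx1 and MafA. Of the 19 members past the threshold over all pairs, 18 had the same direction in all 3 settings, and Tjp3 was the exception.

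Cldn4 is given as an example of the values by combination. In edgeR its effect was not called different between the combinations (direct test described below, adjusted p = 0.442). Beside Pdx1 the samples with Ngn3 had 1092, 498 and 1226 CPM in WT and 622, 838 and 1127 CPM in 6SA cultures. Beside MafA they had 910, 615 and 658 CPM in WT and 1283, 354 and 411 CPM in 6SA cultures. With all 3 factors they had 125, 85.3 and 762 CPM in WT and 148 and 120 CPM in 6SA cultures. The fitted log2 differences were -1.04 ± 0.52, -1.34 ± 0.50 and -3.33 ± 0.58 in this order, and the last alone passed the test (adjusted p = 0.437, 0.145 and 0.000184). Cldn2 followed the same order. It had 332 to 543 CPM in the 6 samples of Ngn3 with Pdx1, 65.5 to 344 CPM in the 6 of Ngn3 with MafA, and 12.6, 0.732 and 114 CPM (WT) and 13.3 and 123 CPM (6SA) with all 3 factors.

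Cldn8 and Tjp3 were low with Ngn3 and MafA. Cldn8 had 0, 0 and 1 count in the 3 WT samples of that combination and 6.78, 0 and 5.35 CPM in the 6SA samples, against 4.98 to 15.5 CPM with Ngn3 and Pdx1. With all 3 factors Cldn8 had 3.56, 0.146 and 3.06 CPM in WT and 1.70 and 6.95 CPM in 6SA cultures, which overlapped the values with Ngn3 and MafA. Tjp3 had 5.48 to 11.1 CPM in the 6 samples of Ngn3 with MafA. With all 3 factors it had 71.3, 43.9 and 13.6 CPM in WT and 71.9 and 73.1 CPM in 6SA cultures, so that its difference there was 0.15 ± 0.49. With Ngn3 and MafA Cdh2 had 146, 318 and 245 CPM in WT and 76.3, 334 and 227 CPM in 6SA cultures, against 31.0 to 108 CPM with Ngn3 and Pdx1. With all 3 factors it had 68.4, 19.9 and 122 CPM in WT and 31.9 and 110 CPM in 6SA cultures, and it did not pass the test among the 6 conditions with Ngn3 (adjusted p = 0.363). A direct test of whether the effect of Ngn3 differed between the 3 combinations called 0 members with edgeR, where 0.0333% of all genes were called. At an unadjusted p under 0.05 it named 5 members, Cldn1, Cldn2, Cldn4, Cldn8 and Tjp3. DESeq2 called 3 of them, Cldn1, Cldn8 and Tjp3.

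**Figure D3:**
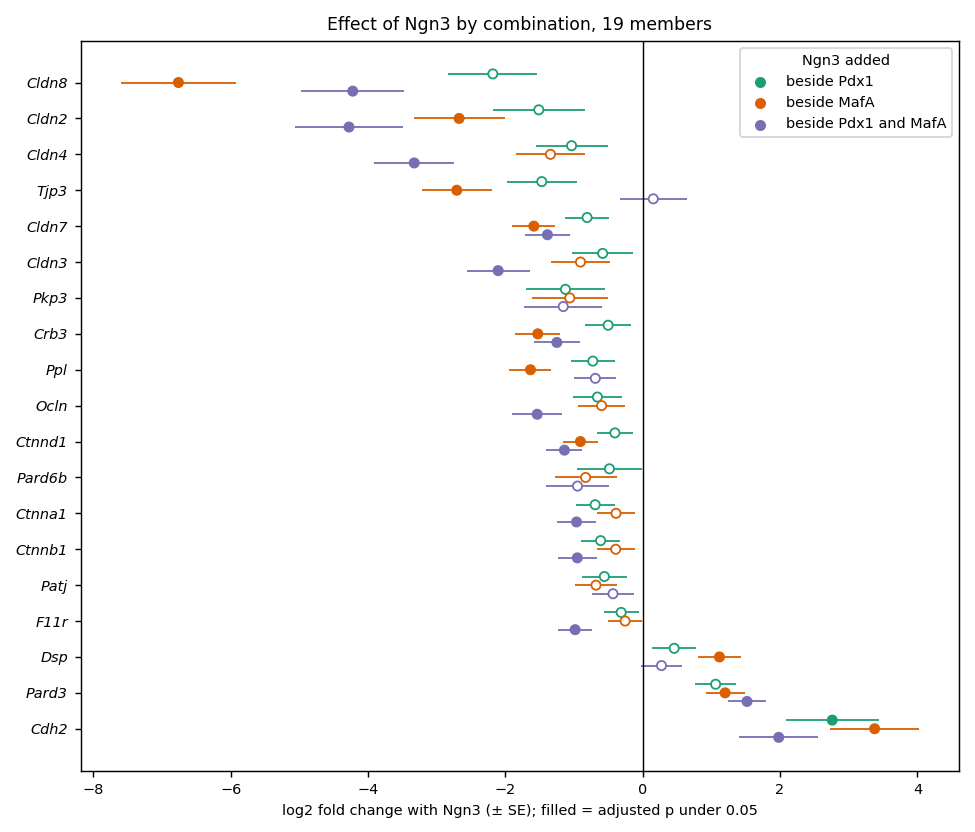
Log2 fold change with Ngn3 (x axis, bars are standard errors) for the 19 members past the threshold, beside Pdx1 (green), MafA (orange) and both (purple), with filled points for an adjusted p under 0.05. The decrease of Cldn4 was -3.33 beside both factors and -1.04 beside Pdx1, and only Tjp3 had values on both sides of 0.

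Among the 6 conditions with Ngn3, 2 members differed, Cldn8 (adjusted p = 0.0196) and Cldn1 (adjusted p = 0.0463), where 0.754% of all genes did. Cldn1, a barrier claudin, had 59.3, 122 and 6.38 CPM with all 3 factors in WT and 70.8 and 165 CPM in 6SA cultures. In the 12 other samples with Ngn3 it had 0.318 to 13.4 CPM, and in the 15 without Ngn3 0.617 to 16.7 CPM. The passage 5 sample of the 3 factors thus lay within the range of the other conditions. Beside Pdx1 and MafA the difference of Cldn1 with Ngn3 was 3.58 ± 0.84 on the log2 scale (adjusted p = 0.00332). Neither call among the conditions with Ngn3 was made when any of the 3 replicates was left out or when only these conditions were fitted, and without replicate 3 Cldn2 and Tjp3 passed in their place. The call of Cldn1 was also lost with filterByExpr and with all libraries, and 4 members passed with the replicate block (3.16% of all genes). Among the 6 conditions without Ngn3, 0 members differed with edgeR and 0 with DESeq2 (0 at an unadjusted p under 0.05), where 0.00417% of all genes did.

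**Figure D4:**
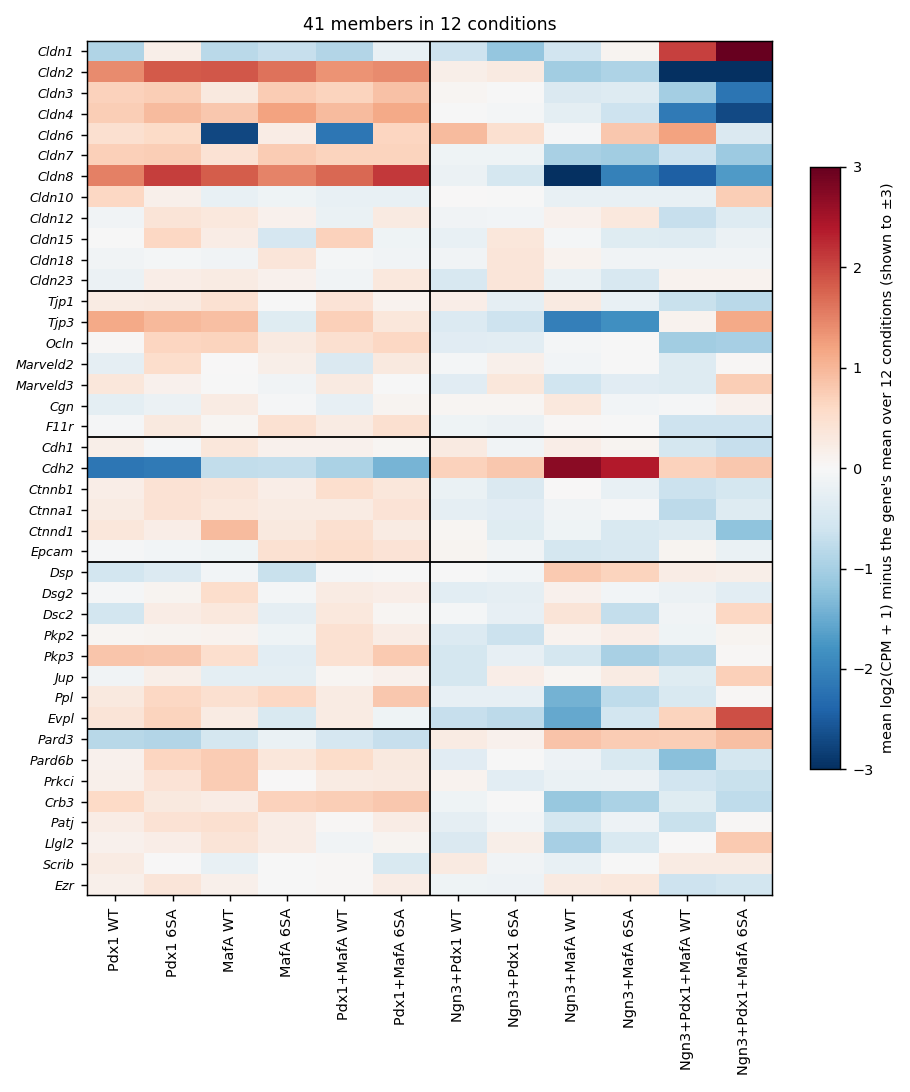
Mean log2(CPM + 1) of the 41 members (rows, by structure) in 12 conditions (columns), minus the mean of the gene over the conditions, with colour limits at ±3. The vertical line parts the 6 conditions without Ngn3 from the 6 with it, and Cldn1 with all 3 factors in 6SA cultures is the darkest red.

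Whether the form of Ngn3 mattered was asked in 2 ways. In WT cultures 10 members passed (2 higher and 8 lower, 8.59% of all genes), and in 6SA cultures 14 passed (2 higher and 12 lower, 14.1% of all genes). The higher members were Cdh2 and Pard3 in each. Without replicate 1 the counts were 5 and 9 (3.39% and 7.09% of all genes), and without replicate 2 they were 3 and 5 (1.47% and 2.74%). The difference between the 2 effects was called for 0 members and 0.0% of all genes with edgeR, and for 0 members with DESeq2. At an unadjusted p under 0.05 it named 1 member, Cldn8, whose effect was 2.06 ± 0.82 higher (less negative) in 6SA cultures (unadjusted p = 0.0188). For 38 members the difference of effects had a median of -0.01 and a median standard error of 0.45. Cdh2 differed by -0.04 ± 0.67 and Pard3 by 0.05 ± 0.32. Compared directly among cells with Ngn3, 6SA and WT differed in 0 members and in 0.0% of all genes with edgeR, and in 0 members with DESeq2. Of these comparisons 3 had an unadjusted p under 0.05, Cldn8 (log2 2.30), Ctnnd1 (log2 -0.56) and Marveld3 (log2 0.71).

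Several members varied more with the replicate number than with Ngn3. A test between the 3 replicate numbers within conditions, chosen after the data were seen, called 17 of the 41 members and 28.1% of all genes tested. Epcam led it. The 6 samples of replicate 1 without Ngn3 had 133, 187 and 246 CPM (lowest, median, highest), and the 9 of replicates 2 and 3 had 1290, 1845 and 2359 CPM. With Ngn3 the 6 samples of replicate 1 had 84.3, 210 and 448 CPM, and the 11 of replicates 2 and 3 had 609, 807 and 1497 CPM. Replicate 2 was higher than replicate 1 by 2.62 on the log2 scale and replicate 3 by 2.61 (adjusted p = 1.83e-07), although replicates 1 and 2 were both at passage 2. Technical repeats gave nearly the same split, with 76.6 to 618 CPM in the 33 libraries of replicate 1 and 578 to 2594 CPM in the 25 of replicates 2 and 3, so that the sets overlapped slightly. Within replicates 2 and 3 Epcam was lower with Ngn3 (log2 -1.004 without replicate 1), and within replicate 1 its ranges with and without Ngn3 overlapped. Without replicate 2 the Epcam difference with Ngn3 changed sign.

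Other members went the opposite way. Llgl2 had 119 to 194 CPM in replicate 1 and 45.8 to 63.2 CPM in replicates 2 and 3 of the cells without Ngn3 (adjusted p = 3.11e-07 over all conditions). Pkp3 had 86.1 to 149 CPM and 7.12 to 63.2 CPM (adjusted p = 2.06e-05), and Evpl had 10.8 to 20.1 CPM and 0.791 to 8.38 CPM (adjusted p = 0.000191). Cdh1 had 639 to 761 CPM in replicate 1 and 344 to 568 CPM in replicates 2 and 3 without Ngn3, while its ranges overlapped with Ngn3. Pkp2, like Epcam, was higher in replicates 2 and 3, by 0.95 and 1.08 on the log2 scale (adjusted p = 0.000720). The share of reads that could not be assigned to a single gene also differed by number. Its median was 6.03% in replicate 1, 13.2% in replicate 2 and 12.4% in replicate 3, and its part in these differences was not tested.

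**Figure D5:**
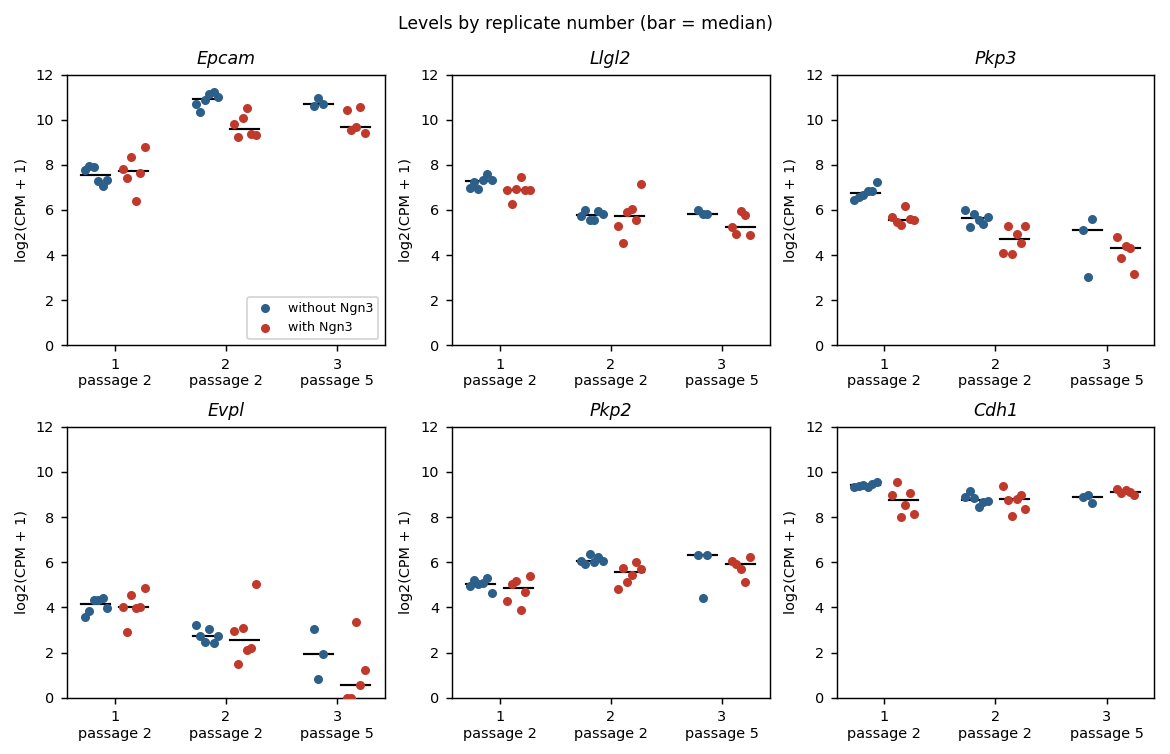
Levels of 6 members as log2(CPM + 1) (y axis) by replicate number and passage (x axis), with a point for each sample, blue without and red with Ngn3, and a bar at the median. Epcam was 133 to 246 CPM in replicate 1 without Ngn3 and 1290 to 2359 CPM in replicates 2 and 3, and Llgl2, Pkp3 and Evpl went the other way.

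Other genes of the same structures, from lists that were written by hand, moved as follows over the 6 pairs. Of all genes tested, 10.5% were lower and 11.1% higher, and of those with a mean of at least 10 CPM 17.2% and 12.2%. Of 24 other tight junction genes tested, 7 were lower and 5 higher. Among those with the lowest adjusted p were Amot and Cgnl1, scaffolds of the tight junction whose medians fell from 55.3 to 17.6 and from 160 to 79.6 CPM, and Cldn11, which rose from 0 to 3.82 CPM. Of 17 other adherens junction genes 8 were lower and 4 higher. Among them, Cdh6 (K-cadherin) fell from a median of 133 to 38.6 CPM and Cdh3 (P-cadherin) from 56.0 to 16.5 CPM, while Ctnna3, an α-catenin, rose from 0 to 14.2 CPM. Of 4 other desmosome genes tested 0 passed in edgeR (1 at an unadjusted p under 0.05) and 0 in DESeq2. Of 26 other polarity genes 5 were lower and 4 higher, among them Slc9a3r1, an apical scaffold that binds ezrin (122 and 52.3 CPM), Epb41l5 (126 and 75.8 CPM), Stk11 (33.2 and 54.4 CPM) and Lin7b (0.883 and 3.46 CPM).

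Gap junction genes, whose channels couple neighbouring cells, were lower in 6 of 10 and higher in 1. For this list and those that follow, 10.5% of all genes tested were lower and 11.1% higher. Gjb1, a connexin gene, fell from a median of 27.8 to 1.40 CPM. Gjd2, the connexin that couples β-cells, was at a median of 0 CPM without and 4.07 CPM with Ngn3. Of 17 regulators of the epithelial state tested, 6 were lower and 2 higher. Grhl2 and Ehf, epithelial transcription factors, had medians of 40.1 and 724 CPM without and 17.7 and 167 CPM with Ngn3, and Elf3 of 193 and 70.1 CPM. Zeb1, a repressor of Cdh1 in other epithelia, had medians of 4.54 and 35.3 CPM (log2 3.19 ± 0.38, adjusted p = 3.74e-07). The mesenchyme marker Vim did not pass the test (log2 1.14 ± 0.51, adjusted p = 0.121), and 0 of 6 mesenchyme markers tested passed in edgeR (1 at an unadjusted p under 0.05) and 1 in DESeq2. Of 5 endothelial markers 0 passed in edgeR (0 at an unadjusted p under 0.05) and 0 in DESeq2. Of the other cell types, 1 acinar marker was higher and 1 lower of 6 tested, with sums of at most 49.7 CPM. Of 4 immune markers tested 2 were lower, and their sum of 413 to 992 CPM without and 39.6 to 423 CPM with Ngn3 was mostly Cd14, at medians of 687 and 52.1 CPM.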

How the data were processed

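Transcripts were measured in 61 libraries of 50-cell pools. The authors aligned the reads with GSNAP to the mouse genome and assigned them to genes with HTSeq 0.5.3p3, as the submitters' processing notes state, and deposited raw counts per gene and library. Whether strand was used is not given in the sources used here. By the criteria of the methods (over 1000000 counts on genes, over 10000 genes, under 25% spike-ins) 58 libraries were kept and 3 left out here, fewer than the study states, with 241563 to 9736403 counts per library before the filter. Reads not assigned to any gene were 8.69 to 31.7% and ambiguous reads 3.92 to 24.9% of counts and were left out. Technical repeats were summed to 32 samples. CPM used TMM-normalized library sizes. A gene was tested if 5 or more libraries detected it and its log2(CPM + 1) variance exceeded 0.001, with edgeR 4.0.16 (quasi-likelihood, trended dispersion, R 4.3.3, Benjamini-Hochberg over 24004 genes) in one fit of 12 conditions, where the study used DESeq2. DESeq2 1.42.0, RLE size factors, other filters, left-out replicates and the replicate block were alternatives. Limits of detection cover counting error only, because PCR copies of a molecule are counted separately, and nothing states that replicates came from separate animals, so p-values measure the spread between these samples. The 41 members, the other lists and the tests were chosen with earlier results of these data known. Every member past the threshold was described, where the rule was at most 10 in each direction by adjusted p. Cdh1, Cdh2, Epcam, Ocln, Tjp1, Cldn3, Cldn7 and Ezr were to be described whatever their outcome. Of the other lists at most 4 genes by adjusted p were named, and Gjd2, Grhl2, Zeb1, Vim, Krt19 and Chga, and some genes that this rule names are not reported here. Cldn1 across conditions and the replicate test were chosen after their values were seen. Replicate numbers are from the labels. Over 5000 genes, deviations from the condition mean correlated above 0.1 between samples of the same number in 12 of 14 pairs of samples, that is in all pairs beside Pdx1, beside MafA and in WT cultures, and went down to -0.42 in the 6SA pairs beside Pdx1 and MafA. The numbers were taken as pairing the former only. Gene positions are of GRCm38 (GENCODE M21) and promoters of RefSeq on GRCm38.p6.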

Additional observations from a re-analysis of the deposited data

How the results depend on the processing

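Over 6 pairs, 14 to 18 members were lower and 3 to 5 higher under the alternatives that kept all replicates, and 5 higher came from no gene filter. Of all genes tested, 7.44 to 13.5% were lower and 8.79 to 15% higher under these alternatives. Leaving out each replicate gave 8 to 17 lower and 2 to 4 higher members, 3 to 10 called in WT cultures and 5 to 13 in 6SA cultures. It gave 0 beside Pdx1 each time, 1 to 7 beside MafA, 3 to 15 beside Pdx1 and MafA, 0 to 1 for the difference between combinations and 0 to 2 among the conditions with Ngn3. The lowest counts in WT and 6SA cultures, beside MafA and beside both factors were those without replicate 2. Of the 23 members named, Cdh1 and Ezr turned from -0.26 and -0.34 to 0.0912 and 0.0925 on the log2 scale without replicate 1 (lowest -0.40 and -0.59 without another), and Epcam from -0.76 to 0.38 without replicate 2 and to -1.004 without replicate 1, where it was called. None of these 3 was called over all samples. The cause was not tested.

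Beside Pdx1, the count of 1 (1.49% of all genes) became 2 with RLE size factors (1.58%), 3 with DESeq2 (3.8%) and 4 with no gene filter (4.08%). It became 2 without the legacy setting of edgeR (2.85%) and 3 with the replicate block (4.21%). Among the conditions with Ngn3, the count of 2 (0.754% of all genes) became 4 with DESeq2 (4.07%), 1 with filterByExpr (1.01%) and 7 with no gene filter (6.5%). It became 1 with all libraries (0.881%), 0 with only the conditions compared (0.0504%) and 4 with the replicate block (3.16%). For the difference between combinations, 0 (0.0333% of all genes) became 3 with DESeq2 (1.14%) and 5 with no gene filter (2.46%). With no gene filter 1 member each differed between 6SA and WT Ngn3 (0.766%) and among conditions without Ngn3 (0.747%). Over all pairs, in 6SA cultures and beside both factors the numbers do not pair the samples in each pair. The block called 22, 17 and 16 members there (27.6%, 20.2% and 23.0% of all genes), and with crossed numbers, added after the data were seen, 21, 17 and 19 (27.9%, 20.0% and 23.1%). By expression, 28 of 32 samples were closest to their own number. Apart from the counts given above beside Pdx1 and among the conditions with Ngn3, the block changed member calls in no comparison by over 1.5 times. The test between replicate numbers called 16 members with RLE size factors and 22 of 41 in the cells without Ngn3 alone. The shares of all genes in these refits are not reported here. Of 253 refits of named members, 222 kept direction and call, 24 lost and 4 gained the call and 3 changed sign. With RLE size factors the calls of Pard6b and Patj were lost.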
